A study of Homo sapiens with 208 samples.

Results

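Untreated PC9 cells were followed for 24 h, and RNA taken at 20 to 24 h was compared with RNA taken at 0 to 3 h. The arrays were chosen by their labels alone, as those of the line PC9 with no treatment at 0, 0.5, 1, 2 and 3 h (the early window, 5 arrays) and at 20, 21, 22, 23 and 24 h (the late window, 5 arrays). These 10 arrays were among the 26 of the untreated PC9 course, 1 per time point, and the 8 courses of 26 arrays of the whole series. The remaining 16 arrays, from 4 to 19 h, gave the course between the windows. PC9 is a human lung adenocarcinoma line whose EGFR carries an activating deletion in the kinase domain and which is sensitive to gefitinib, an inhibitor of that kinase. The cells had been starved for 48 h before time 0, and then received neither EGF nor gefitinib. The course thus served as the no-treatment control of a series that also followed EGF, gefitinib and both agents in PC9 and in PC9M2. Here 2 other courses were used for comparison, PC9 given 100 ng/ml EGF from 0 h and untreated PC9M2, both after the same starvation. PC9M2, PC9GRM2 in the labels, is a single gefitinib-resistant line, cloned out of PC9 by prolonged exposure to gefitinib and free of MET amplification and of the secondary EGFR mutation usual in resistance. The comparison asked which genes differed between the start and the end of a day without treatment, and by how much.

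Cells deprived of growth factors leave the cell cycle, and transcription factors of the FOXO family then switch on genes of growth arrest. A cell line with a constitutively active EGFR can keep signalling without added ligand. Medium left on cells also changes, since nutrients are used up and secreted proteins such as chemokines build up in it. NF-kB, interferon, hypoxia, sterol and amino acid pathways each have well known target genes by which such states are usually read.

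Arrays of a slide shared a line and an hour and differed in treatment. The 26 slides of PC9 were scanned on 8 days, with 0 to 2 h on the first day and 3 to 6 h on the second, and with 19 to 21 h on the seventh and 22 to 24 h on the eighth. The number of scan days that held arrays of both windows was 0, so time, slide and scan day cannot be told apart in the comparison of the windows. The time points stood in for replicates, and a p-value measured only the spread between these samples, which are neighbours in time and not separate cultures by their labels. In RNA from a whole culture, a change in the share of cells that express a gene and a change in its level per cell cannot be told apart either.

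The arrays themselves differed between the windows. Between 33264 and 34909 features were well above background on the early arrays and between 26776 and 29686 on the late arrays (exact permutation test, two-sided, p = 0.00794, the smallest that 5 against 5 can give; adjusted over 8 measures, 0.0159). The 75th percentile of the signal was 1804 to 4300 scanner units early and 900.3 to 1861 late (adjusted p = 0.0212), with the highest value at 3 h. Between 814 and 1616 features were saturated early and between 463 and 797 late, and the negative control spots read 13.2 to 20.7 early and 25.1 to 32.8 late (adjusted p = 0.0159 for both). The slope of the spike-in controls did not pass (adjusted p = 0.238). Quantile normalization set the arrays on 1 distribution, and the part of these measures in the results below was not tested.

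**Figure D1:**
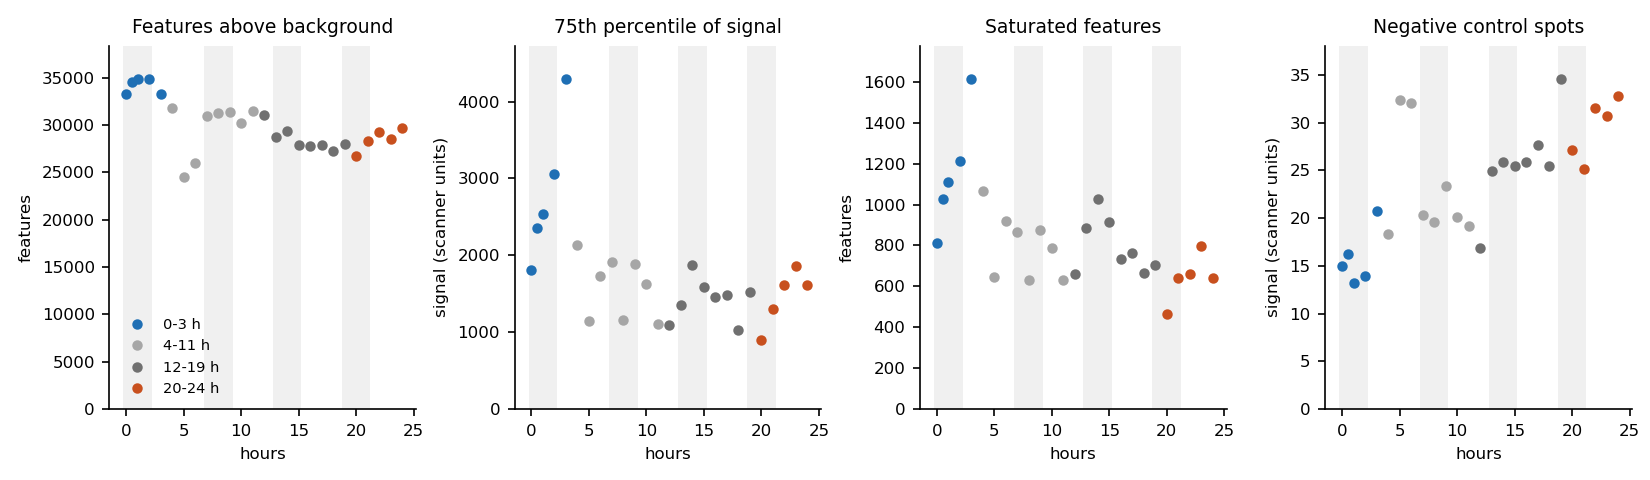
Features well above background, 75th percentile of the signal, saturated features and mean signal of the negative control spots on the 26 untreated PC9 arrays against time in hours. Each point is 1 array, colours give the window and grey bands mark every other scan day. The early arrays lie above the late arrays in features above background and below them in negative control signal.

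Of 13263 tested genes, 7256 (54.7%) differed between the windows at an adjusted p under 0.05, with 3399 higher late (25.6%) and 3857 lower late (29.1%). At least 2-fold changes were seen for 2447 of them (18.4%), 1005 higher and 1442 lower. All values below are log2 signals or differences of log2 signals, late minus early, where 1 is a 2-fold change. The median difference over all tested genes was -0.04 and the median absolute difference 0.50. The early and late values did not overlap for 5149 genes (38.8%). Correlations between 2 arrays across genes were 0.982 to 0.996 within the early window, 0.973 to 0.988 within the late window and 0.949 to 0.965 between the windows, as a description, since all arrays share probes. Dim genes leaned downward. Among the 11056 genes above background on all 10 arrays, 3177 were higher and 3004 lower, with a median of 0.03. Among the other 2207 genes, 222 were higher and 853 lower, with a median of -0.51, and 2147 of these were detected on fewer late than early arrays.

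Scan day was then entered as a random block, with an estimated correlation of 0.40 between arrays of a day. This left 4678 genes, 2088 higher and 2590 lower. The trend within scan days over all 26 arrays, scaled to the 20.7 h between the window means, gave 260 genes, 193 higher and 67 lower. Of these, 116 were among the 7256, but only 45 in the same direction. Of the 7256 genes, 4881 (67.3%) had the same sign within scan days as between the windows, and the median of all tested genes within scan days was -0.27. This trend rests on 3 or 4 neighbouring hours per day and has wide errors. Below, its medians are given beside those of the windows for a part of the gene lists. Of the medians of all 27 lists, 14 had the other sign within scan days.

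Chemokines and other NF-kB targets held the largest rises of a list. NF-kB is the transcription factor of inflammatory signalling, and CXCL8 and CXCL1 encode secreted chemokines that attract neutrophils. Of 15 tested members, 9 rose and 3 fell, beside 25.6% higher and 29.1% lower of all tested genes, with a median of 0.90. CXCL8 read 4.01, 3.81, 4.47, 4.31 and 4.90 in the early window, in the order of the hours, and 7.61, 8.86, 7.00, 7.91 and 8.14 in the late window. Every late array was thus above every early one, by a mean of 3.60 (SE 0.31, adjusted p = 4.9e-06). CXCL1 read 8.54, 8.94, 8.95, 8.80 and 9.23 early and 11.39, 11.49, 10.93, 11.47 and 11.04 late, again without overlap, a rise of 2.37 (SE 0.16, adjusted p = 1.3e-06). NFKBIA, which encodes the inhibitor that NF-kB induces to limit itself, rose by 1.49 (SE 0.17, adjusted p = 2.6e-05), with the spot saturated on 1 early and 2 late arrays. The list also held rises of NFKBIZ (1.48), BIRC3 (1.28), an inhibitor of apoptosis, RELB (1.02), an NF-kB subunit, and SOD2 (0.95), the mitochondrial superoxide dismutase. CSF2, a growth factor of myeloid cells that was above background on 1 late array, fell by 2.03, IL1B by 0.64 and ICAM1, an adhesion molecule, by 0.58, the last 2 of which lost their calls with scan day as a block (adjusted p = 0.0507 and 0.0581). Within scan days the median of the list was 0.24.

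The promoters of these 3 leading members are shown because each holds a copy of the NF-kB site GGAAATTCC, searched on both strands in the 250 bases before the start of the gene. RefSeq promoters on GRCh38.p14 were matched for 14 of the 15 members, and 7 held the site, against 0.502% of all 27305 genes with a promoter. A gene counted if any of its promoters held the site, here and for the sites below. Of these 7 genes, 5 rose and 1 fell, and of the 7 without it, 3 rose. Sequences are given 5′ to 3′ on the strand of the gene with the match in capitals, for CXCL8 (chr4:73740319-73740568, plus strand), CXCL1 (chr4:73869143-73869392, plus strand) and NFKBIA (chr14:35404750-35404999, minus strand). A match is a description of the letters and no evidence of binding.
CXCL8: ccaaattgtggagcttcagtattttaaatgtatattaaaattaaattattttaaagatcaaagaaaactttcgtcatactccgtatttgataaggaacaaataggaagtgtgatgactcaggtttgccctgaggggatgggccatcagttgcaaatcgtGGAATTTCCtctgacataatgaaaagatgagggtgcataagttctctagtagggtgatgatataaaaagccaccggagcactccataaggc
CXCL1: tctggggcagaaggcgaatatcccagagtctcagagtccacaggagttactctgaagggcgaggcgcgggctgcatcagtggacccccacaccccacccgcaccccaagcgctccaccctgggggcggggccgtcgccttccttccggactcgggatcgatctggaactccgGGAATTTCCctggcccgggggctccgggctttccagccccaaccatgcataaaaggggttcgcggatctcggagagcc
NFKBIA: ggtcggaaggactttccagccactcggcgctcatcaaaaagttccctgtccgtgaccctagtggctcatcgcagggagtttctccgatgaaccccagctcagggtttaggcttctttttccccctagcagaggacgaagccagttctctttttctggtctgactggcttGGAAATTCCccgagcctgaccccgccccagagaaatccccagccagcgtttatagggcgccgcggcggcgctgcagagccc

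Interferon-stimulated genes, which cells switch on against viruses, rose for 16 of 29 tested members and fell for 5, with a median of 0.62. The called share was 72.4%, beside 54.7% of all tested genes. IFIT1, an antiviral RNA-binding protein, read 8.14, 7.62, 7.57, 7.25 and 7.77 early and 9.62, 9.52, 9.52, 9.72 and 9.50 late. The late values lay close together and all above the early ones, with a mean rise of 1.90 (SE 0.15, adjusted p = 3.1e-06). RIGI, a sensor of viral RNA, rose by 1.78 (SE 0.16, adjusted p = 6.0e-06), and CXCL11, a chemokine for T cells, by 2.68 (SE 0.19, adjusted p = 1.5e-06). CXCL11 had the opposite sign within scan days (-5.92), as had the list's median (-0.57). IFIT5 (1.35), CXCL10 (1.01), OAS1 (0.88), which makes an antiviral second messenger, and IRF1 (0.85), a transcription factor, also rose. OASL (-1.64), MX2 (-0.94, above background on 1 late array) and IRF7 (-0.38) fell, of which MX2 (adjusted p = 0.27) and IRF7 (adjusted p = 0.177) lost their calls with scan day as a block. The interferon response element, searched on both strands as GAAA, 2 bases of any kind and GAAA, stood in the promoters of 15 of 23 members with a RefSeq promoter and of 3.71% of all genes with one. Of the 15, 10 rose and 0 fell, and of the 8 without it, 5 rose. IFIT1 is shown as the member with 2 copies close together (chr10:89392373-89392622, plus strand), both in the reverse orientation and in capitals.
IFIT1: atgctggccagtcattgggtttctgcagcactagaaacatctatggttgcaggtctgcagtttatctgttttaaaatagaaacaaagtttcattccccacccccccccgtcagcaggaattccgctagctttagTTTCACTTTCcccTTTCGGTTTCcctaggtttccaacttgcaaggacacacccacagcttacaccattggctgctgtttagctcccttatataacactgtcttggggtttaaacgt

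Chaperones fold proteins in the cytosol and in the endoplasmic reticulum. Of 15 cytosolic heat shock genes 9 rose and 2 fell (median 0.61), and of 18 endoplasmic reticulum chaperones 5 rose and 2 fell (median 0.12). Called members were 73.3% of the cytosolic and 38.9% of the endoplasmic reticulum list, beside 54.7% of all tested genes. HSPA1A, the inducible cytosolic HSP70, read 12.99, 12.04, 11.97, 12.64 and 15.51 early and 15.43, 15.03, 15.35, 15.45 and 15.67 late. The saturated spot at 3 h already lay among the late values, and the other 4 early arrays lay below all of them. The mean rise of 2.36 (SE 0.55, adjusted p = 0.0038) had an adjusted p of 0.051 with scan day as a block. DNAJB1, its co-chaperone, rose by 1.41 (SE 0.24, adjusted p = 0.00053) but was at -0.02 within scan days. HSPH1 (1.41), DNAJA1 (1.15) and HSP90AB1 (0.86) rose, and the small heat shock genes HSPB1 (-0.93) and HSPB8 (-0.65) fell. With scan day as a block DNAJA1 (adjusted p = 0.0881), HSP90AB1 (adjusted p = 0.0549) and HSPB8 (adjusted p = 0.0975) lost their calls. HSPA5, the endoplasmic reticulum HSP70 known as BiP, read 14.28, 14.60, 14.40, 15.94 and a saturated 17.11 early and 13.60, 13.30, 14.32, 14.32 and 14.40 late. Its windows overlapped, and the drop of 1.28 (SE 0.50, adjusted p = 0.048) lost its call with scan day as a block (adjusted p = 0.063) and in 7 of the 10 fits that each left out 1 array, among them the one without 3 h, where the difference was -0.82 (adjusted p = 0.076). Its second probe was at 0.02. The middle of its course was lower than both ends, as described further below. The median within scan days was -0.38 for the cytosolic and -0.36 for the endoplasmic reticulum list. The heat shock element GAANNTTC was found in 10 of 15 cytosolic members, of which 5 rose and 2 fell, and in 7.05% of all genes with a promoter, and 4 of the 5 members without it rose. The promoter of HSPA1A is shown for its single match (chr6:31815293-31815542, plus strand).
HSPA1A: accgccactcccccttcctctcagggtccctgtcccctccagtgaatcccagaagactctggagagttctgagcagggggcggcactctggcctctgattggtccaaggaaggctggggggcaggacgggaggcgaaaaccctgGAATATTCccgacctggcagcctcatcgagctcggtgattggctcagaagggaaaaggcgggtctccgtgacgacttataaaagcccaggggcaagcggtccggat

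Growth-arrest genes and DNA replication genes both held more rises than falls. Of 19 FOXO targets and related growth-arrest genes, 12 rose and 1 fell, with a median of 0.69. The called share was 68.4%, beside 54.7% of all tested genes. GABARAPL1, an autophagy gene and FOXO target, read 10.80, 10.71, 10.71, 10.60 and 10.36 early and 12.11, 11.71, 12.61, 12.33 and 12.62 late. The windows were separated and the rise was 1.64 (SE 0.18, adjusted p = 2.1e-05). CCNG2, a cyclin that restrains the cycle, rose by 1.47 and PDK4, which turns cells from glucose to fat oxidation, by 1.25 (adjusted p = 3.9e-05 and 0.0004), both with the opposite sign within scan days (-1.15 and -0.09). The median of the FOXO list was -0.75 within scan days. Among 14 D-type cyclins, CDK inhibitors and retinoblastoma genes, 6 rose and 4 fell, with a median of 0.36 that was -0.53 within scan days and -0.03 with normexp background correction. Of this list 71.4% was called. CDKN2D, the p19 inhibitor of CDK4 and CDK6, read 11.15, 10.72, 10.85, 10.71 and 11.20 early and 14.04, 14.13, 13.86, 14.09 and 13.63 late. The windows did not overlap. This rise of 3.02 (SE 0.14, adjusted p = 2.5e-07) was among the 10 largest of all genes above background on all 10 arrays. CDKN2B, which encodes p15, rose by 1.60, CDKN2C (p18) by 0.94 and CDKN1B (p27) by 0.83, whereas CDKN1A (p21) fell by 0.71, CDK4 by 0.69 and the retinoblastoma relatives RBL1 and RBL2 by 1.50 and 0.96, RBL1 with 1 late array above background. CDKN1A (adjusted p = 0.0547) and RBL1 (adjusted p = 0.139) lost their calls with scan day as a block. CDKN2B was at -0.19 within scan days.

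Of 33 replication and S phase genes, 20 rose and 2 fell, with a median of 0.51 (within scan days -0.17). E2F1, the transcription factor that drives S phase genes, read 9.79, 9.20, 9.20, 9.23 and 9.36 early and 11.14, 10.86, 10.65, 10.55 and 10.52 late. The windows did not overlap, the mean rose by 1.39 (SE 0.16, adjusted p = 3.1e-05), and the highest late value was the first of the window. E2F8, a repressor of the same family, rose by 1.45, UHRF1, which keeps DNA methylation through replication, by 1.35, CDT1, a licensing factor, by 1.03 and the helicase subunit MCM3 by 0.97. Mitotic genes were mixed, with 13 of 29 higher and 5 lower (median 0.34, within scan days -0.94). The called share was 66.7% for replication and 62.1% for mitotic genes, beside 54.7% of all tested genes. Of all tested genes, 25.6% were higher and 29.1% lower. AURKB, a mitotic kinase, rose by 1.23 (SE 0.12, adjusted p = 1.0e-05), HMMR by 1.25, CDK1 by 0.90 and FOXM1 by 0.84. BIRC5, the survivin that works beside AURKB in 1 complex, read 12.20, 12.46, 12.50, 12.46 and 12.67 early and 11.71, 11.52, 11.09, 10.61 and 11.12 late. It fell by 1.25 (SE 0.19, adjusted p = 0.00023), and the kinesin KIF11 and the kinase PLK1 fell by 1.05 and 0.95. MKI67, TOP2A, CCNB1 and CCNA2, usual markers of cycling cells, did not pass. The E2F site TTTNNCGC was found in 13 of 28 replication genes with a promoter, of which 9 rose and 1 fell, and in 7.145% of all genes with one, while 9 of the 15 replication genes without it rose. The promoter of E2F1 itself is shown for its 4 matches (chr20:33686386-33686635, minus strand), the last pair of which overlap.
E2F1: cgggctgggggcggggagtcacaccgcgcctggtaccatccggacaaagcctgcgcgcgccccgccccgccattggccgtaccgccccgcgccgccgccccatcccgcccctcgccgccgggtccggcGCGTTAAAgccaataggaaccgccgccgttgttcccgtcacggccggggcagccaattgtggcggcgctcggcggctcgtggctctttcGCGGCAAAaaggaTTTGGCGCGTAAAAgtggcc

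Glycolysis genes and targets of the hypoxia factor HIF rose for 15 of 27 tested members and fell for 3, with a median of 0.48. The called share was 66.7%, beside 54.7% of all tested genes. ENO2, an enolase of glycolysis, read 7.79, 7.27, 7.12, 7.13 and 7.29 early and 9.60, 9.02, 9.61, 9.41 and 9.73 late. Every late array was above every early array, by a mean of 2.15 (SE 0.17, adjusted p = 2.8e-06). ANKRD37, a small HIF target, rose by 2.14 (SE 0.14, adjusted p = 1.2e-06), ADM, which encodes a vasodilator peptide, by 1.35, HK2, the first kinase of glycolysis, by 1.15, VEGFA by 1.12 and the glucose transporters SLC2A3 and SLC2A1 by 1.08 and 0.89. PFKFB3, a regulator of glycolysis, rose by 1.41, but lost its call with scan day as a block (adjusted p = 0.067) and was at -0.11 on its brightest probe. ENO1, the main enolase, fell by 1.21, CA9, a HIF-induced carbonic anhydrase, by 1.12 and PKM, the pyruvate kinase, by 0.55. Within scan days the list's median was -0.53.

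Sterol synthesis, whose genes are switched on when cells lack cholesterol, rose for 11 of 23 members and fell for 1 (median 0.47, within scan days -0.05). The called share was 52.2%, beside 54.7% of all tested genes. HSD17B7, an enzyme of the pathway, read 11.87, 11.49, 11.58, 11.35 and 11.54 early and 12.87, 12.65, 13.06, 12.87 and 13.10 late, a rise of 1.34 without overlap (SE 0.13, adjusted p = 9.9e-06). IDI1 (1.04) and MSMO1 (0.89) rose as well, with the opposite sign within scan days (-0.48 and -0.49). HMGCS1, an early enzyme of the pathway, did not pass. Fatty acid synthesis was divided, with 4 of 13 members higher, among them the desaturase SCD (0.78, but -0.06 on its brightest probe), and 3 lower, among them ACSL3 (-1.12), which activates fatty acids. The median of the fatty acid list was 0.18, with 53.8% called.

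The circadian clock list held 8 rises and 0 falls among 17 tested members, with a median of 0.36. Its called share was 47.1%, beside 54.7% of all tested genes. PER1, a period gene of the clock's negative arm, read 8.45, 8.44, 7.95, 8.12 and 7.97 early and 9.49, 9.13, 9.64, 9.43 and 9.67 late. The windows did not overlap and the rise was 1.28 (SE 0.15, adjusted p = 3.4e-05). CIART, a repressor of the clock, rose by 1.25 (SE 0.14, adjusted p = 2.9e-05), NFIL3 by 1.07, NR1D1 by 0.88 and the output factors TEF, above background on 3 late arrays, and DBP by 0.66 and 0.56. TEF (adjusted p = 0.164) and DBP (adjusted p = 0.0738) lost their calls with scan day as a block. BMAL1, CLOCK, CRY1 and PER2, the core of the clock, did not pass. CIART (-0.68), NFIL3 (-0.19) and the list's median (-0.92) had the opposite sign within scan days. The E-box CACGTG stood in the promoters of 6 of 16 members, of which 3 rose and 0 fell, and of 7.73% of all genes with a promoter, while 5 of the 10 members without it rose. CIART is shown for its 3 matches (chr1:150282304-150282553, plus strand).
CIART: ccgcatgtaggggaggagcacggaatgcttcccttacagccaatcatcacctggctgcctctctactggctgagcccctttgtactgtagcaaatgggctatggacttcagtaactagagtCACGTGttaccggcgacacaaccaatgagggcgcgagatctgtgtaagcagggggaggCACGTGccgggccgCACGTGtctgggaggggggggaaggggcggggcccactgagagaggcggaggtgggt

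**Figure D2:**
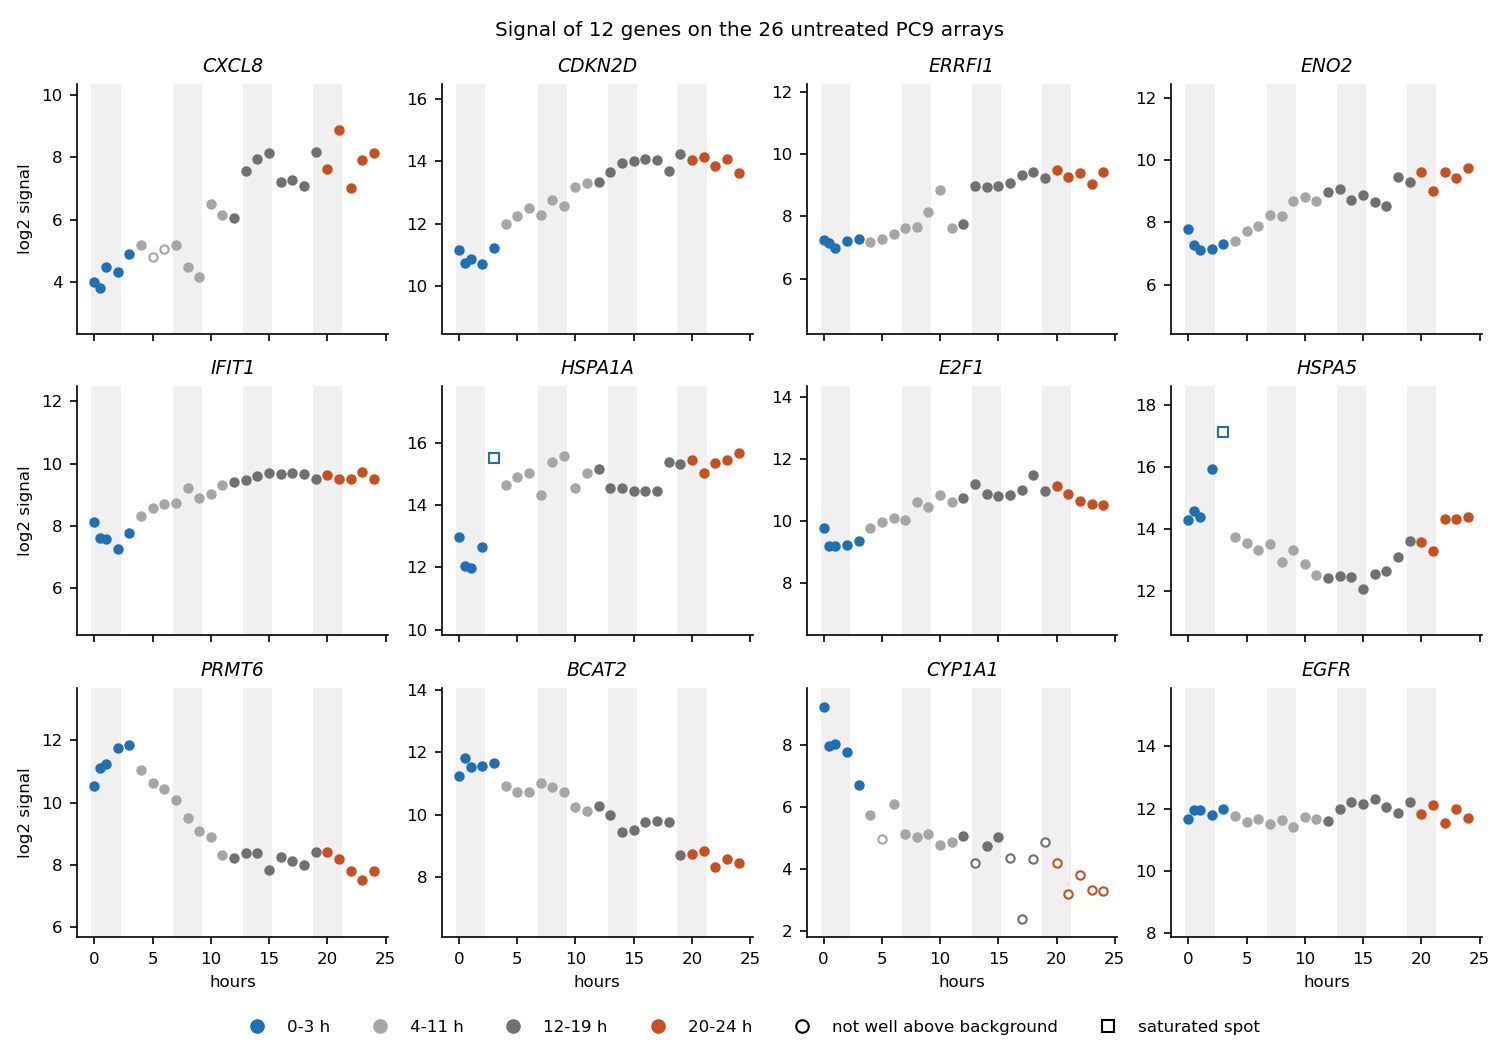
Log2 signal of 12 genes on the 26 untreated PC9 arrays against time in hours, with 1 point per array. Colours give the window, open circles mark spots not well above background, open squares saturated spots, and grey bands every other scan day, and each panel spans the same number of log2 units. CXCL8, CDKN2D, ERRFI1, ENO2, IFIT1 and E2F1 are higher late, PRMT6, BCAT2 and CYP1A1 are lower late, HSPA1A reaches its late level at 3 h, HSPA5 is lowest in the middle, and EGFR stays between 11.4 and 12.3.

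Several genes of amino acid supply fell. ATF4, the factor of the amino acid stress response, induces enzymes that make serine and asparagine and the synthetases that load tRNAs. Of 26 tested genes of this list, 12 fell and 5 rose, with a median of -0.27 (within scan days -0.71). The called share was 65.4%, beside 54.7% of all tested genes, of which 29.1% were lower. SARS1, the seryl-tRNA synthetase, read 15.74, 16.44, 16.15, 16.21 and 16.08 early, saturated on 4 of the 5 arrays, and 14.38, 14.07, 14.61, 14.43 and 14.56 late. Every late array lay below every early one. The measured fall of 1.71 (SE 0.15, adjusted p = 5.3e-06) has no exact size, since most early spots were saturated. PSAT1, an enzyme of serine synthesis, read 15.08, 16.03, 16.02, 16.09 and 16.09 early and 14.11, 14.60, 14.08, 14.18 and 13.93 late. Its windows did not overlap either. It fell by 1.68 (SE 0.21, adjusted p = 5.1e-05), and PCK2, which feeds carbon into that route, by 1.83 (SE 0.21, adjusted p = 3.2e-05). Of the others, GARS1 fell by 1.29, ASNS, the asparagine synthetase, by 1.23, SLC7A5, an amino acid transporter, by 1.08 and SLC7A11, the cystine importer, by 0.93. DDIT4 (1.17), an inhibitor of mTOR, DDIT3 (1.10), the stress factor CHOP, and PSPH (1.07), the last enzyme of serine synthesis, rose. With scan day as a block SLC7A11 (adjusted p = 0.148) and PSPH (adjusted p = 0.0523) lost their calls. BCAT2, the mitochondrial transaminase of branched-chain amino acids, was outside the list and among the 10 largest falls of genes above background on all 10 arrays. It read 11.24, 11.81, 11.52, 11.57 and 11.67 early and 8.74, 8.83, 8.33, 8.56 and 8.44 late, a fall of 2.98 (SE 0.14, adjusted p = 2.5e-07).

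Targets of NRF2, the factor of the antioxidant response, had 8 falls and 4 rises among 18 members and a median of -0.38, which was 0.26 when arrays were scaled to their 75th percentile. NQO1, a quinone reductase, read 11.16, 11.09, 11.07, 11.17 and 11.14 early and 10.13, 10.06, 10.08, 9.87 and 9.90 late. Its early values lay close together and above all late ones, and the fall was 1.12 (SE 0.10, adjusted p = 5.2e-06). The aldo-keto reductase AKR1C1 fell by 1.48. Of its other probes, both brighter, 1 was at -1.60 and the brightest at 0.02. HMOX1, the haem oxygenase, rose by 1.01 (adjusted p = 0.00096). Ribosome biogenesis had 6 falls and 2 rises among 25 members (median -0.28, within scan days -1.16). This was 32% of the list called, beside 54.7% of all tested genes. BOP1 (-1.18), WDR12 (-1.05) and NOLC1 (-0.85), which act in making ribosomal subunits, fell, as did PES1 (-3.32), above background on all 5 early and 2 late arrays. NOLC1 was at only -0.03 and -0.20 on its other probes, both of them brighter. BOP1 read 13.23, 13.19, 13.16, 13.25 and 12.89 early and 12.31, 11.70, 12.19, 11.73 and 11.88 late, without overlap (adjusted p = 5.1e-05).

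EGFR itself did not pass the test. It read 11.69, 11.97, 11.96, 11.79 and 12.00 early and 11.83, 12.12, 11.54, 11.98 and 11.69 late, a difference of -0.05 (SE 0.13, adjusted p = 0.79). The windows overlapped fully. Of 14 tested ERBB receptors, ligands and regulators, 4 rose and 3 fell (median -0.07, with normexp background correction 0.06, within scan days -1.06). That was 50% called, beside 54.7% of all tested genes. ERRFI1, the feedback inhibitor of EGFR also known as MIG6, read 7.24, 7.15, 6.99, 7.21 and 7.26 early and 9.48, 9.27, 9.41, 9.04 and 9.43 late. It rose by 2.15 (SE 0.12, adjusted p = 5.8e-07), and its second probe by 1.17. ERBB4 (1.89, above background on 4 late arrays) and ERBB2 (0.74) rose, the ligand BTC fell by 1.00 and ERBB3 by 0.71, the last with an adjusted p of 0.065 with scan day as a block. MET, a receptor kinase through which lung cancers can bypass EGFR, fell by 0.63 (adjusted p = 0.018, with scan day as a block 0.079). Its 3 probes differed, at -0.63, -0.29 and 0.79, so its direction depends on the probe. Genes induced by ERK, the kinase below EGFR, had 7 falls and 6 rises among 19 members (median -0.22, within scan days -1.67). The feedback inhibitors SPRED1 (-1.82, above background on 4 late arrays), SPRED2 (-1.06), SPRY4 (-1.06) and SPRY2 (-0.99) and the AP-1 factor FOSL1 (-1.18) fell, while IER3 (0.96), LIF (0.95) and DUSP6 (0.55), an ERK phosphatase, rose. IER3 (adjusted p = 0.196) and DUSP6 (adjusted p = 0.063) lost their calls with scan day as a block. Immediate-early genes were mixed, with 6 rises and 5 falls among 19 (median 0.16). KLF2 fell by 1.52 and KLF6 rose by 0.93, the latter at -1.56 within scan days.

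The study is about Wnt signalling, in which FZD receptors act through beta-catenin (CTNNB1) and LEF1 on targets such as AXIN2. Of 25 tested Wnt genes, 7 fell and 4 rose, with a median of -0.08 (within scan days -0.30). Called genes were 44% of this list, beside 54.7% of all tested genes. FZD5 read 9.02, 8.90, 9.05, 9.31 and 9.92 early and 10.91, 10.73, 9.99, 10.30 and 9.95 late. The windows nearly met, with 9.92 at 3 h and 9.95 at 24 h, and the mean rose by 1.13 (SE 0.24, adjusted p = 0.0019). FZD7 rose by 0.85 (SE 0.14, adjusted p = 0.00036). AXIN2 read 7.13, 7.20, 7.43, 7.59 and 7.56 early and 6.67, 5.81, 7.12, 6.54 and 6.63 late, and fell by 0.83 (SE 0.21, adjusted p = 0.0061). FZD6 fell by 1.27, and ZNRF3, a ligase that removes FZD receptors, fell by 1.14 but was at 0.44 on its other probe and 0.42 with 75th-percentile scaling. FZD9 (-0.05), LEF1 (0.05) and CTNNB1 (0.15) did not pass (adjusted p = 0.82, 0.87 and 0.53).

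All 16 epithelial markers were above background on all 10 arrays. So were 11056 of all 13263 tested genes and 5 of the 7 tested markers of blood, fibroblast and endothelial cells. Detection alone thus does not identify the cell type. Of the 16 epithelial markers, 4 rose and 3 fell, and the median of -0.10 was 0.08 with 75th-percentile scaling. ESRP1, an epithelial splicing factor, read 11.87, 12.22, 11.83, 11.54 and 11.10 early and 10.16, 10.04, 9.91, 10.03 and 10.09 late, a fall of 1.67 (SE 0.18, adjusted p = 2.2e-05). CLDN7, a tight junction protein, fell by 1.64, with 4 early arrays saturated, but was at 0.15 with 75th-percentile scaling. Of 16 markers of blood, fibroblast and endothelial cells, 7 reached the tested set, of which ITGAM rose (0.88) and VWF fell (-0.38, adjusted p with scan day as a block 0.094). Targets of YAP and TGF-beta, which act in growth and matrix control, had 5 falls, TGFB1 (-1.89) the largest, and 3 rises among 17, with CCN1 at 1.25 and a median of -0.17, which was 0.02 with normexp background correction. CCN1 was at 0.46 and 0.33 on its other probes, both of them brighter. Among 20 p53 targets 8 rose and 7 fell (median 0.01), the proapoptotic BAX at 1.77 on 1 probe and 0.46 on the other. The lists of the proteasome (13 of 31 higher, 6 lower), the lysosome (8 and 4 of 22) and apoptosis regulators (3 and 5 of 16) had medians of 0.25, 0.15 and -0.23. The share of tested members called ran from 28.6% for markers of other cell types to 80% for NF-kB targets, beside 54.7% of all tested genes, and was below it for 12 of the 27 lists. Of 13 transcripts often used as references, 7 rose and 3 fell (median 0.45). GAPDH was at 0.37 and ACTB at 0.50, both called, GAPDH not with scan day as a block (adjusted p = 0.0955), and YWHAZ was at -2.18 on the probe used and between -0.62 and -0.32 on its 5 others.

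**Figure D3:**
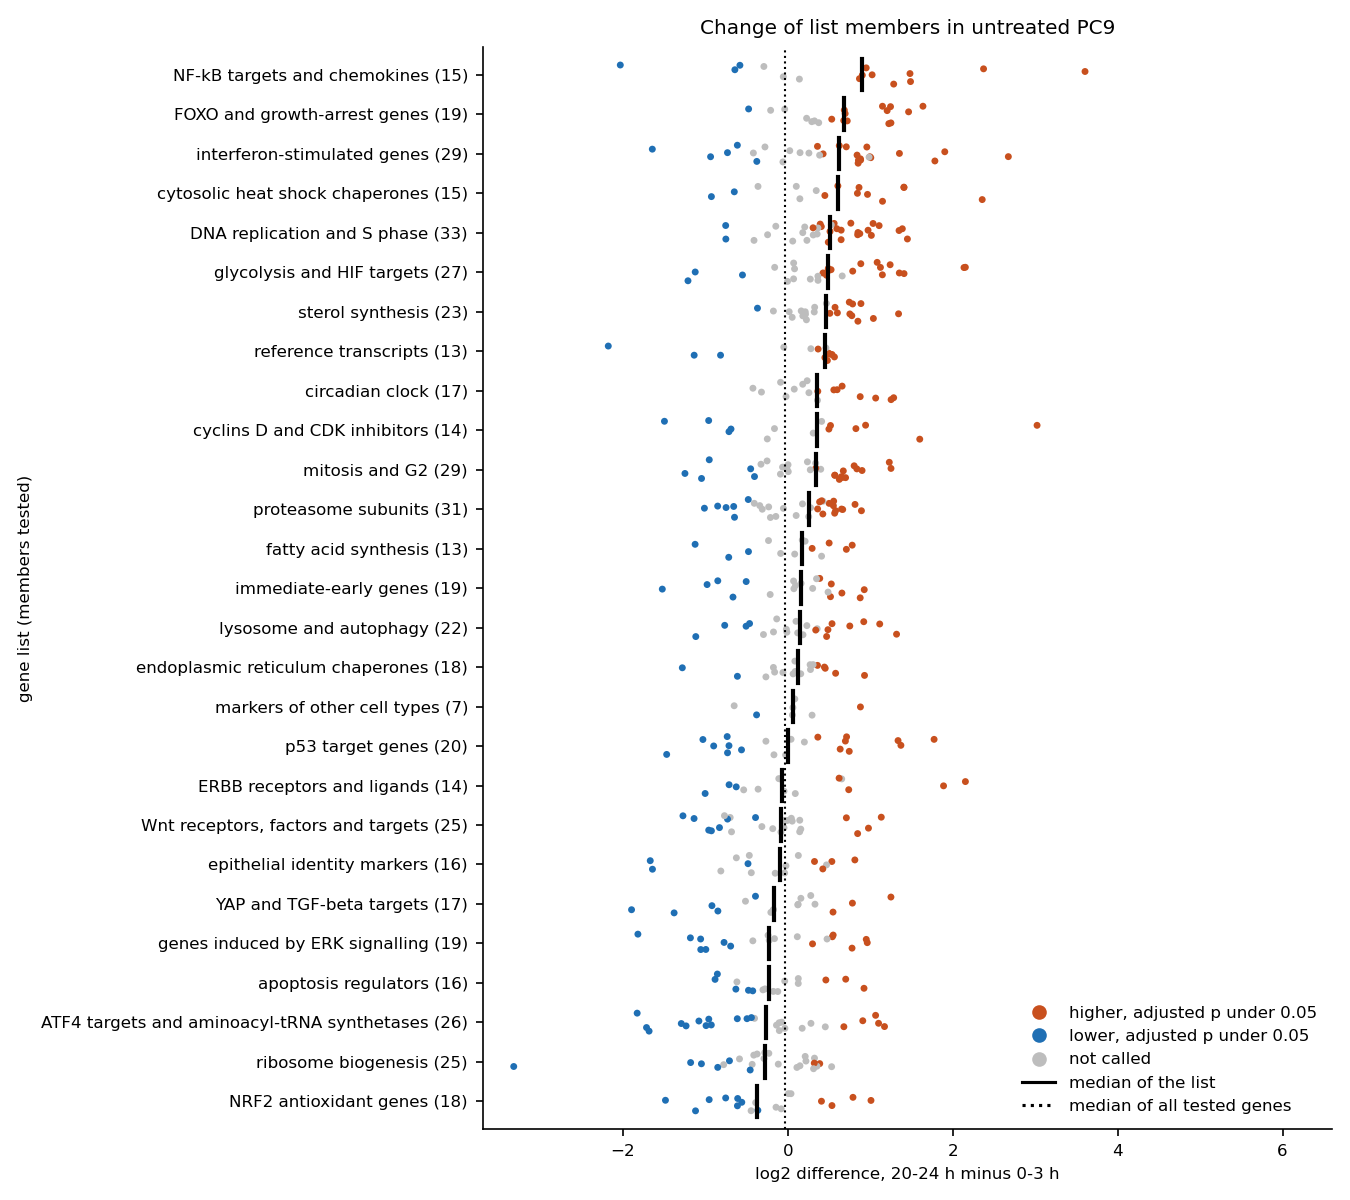
Log2 difference, 20 to 24 h minus 0 to 3 h, of each tested member of the 27 gene lists in untreated PC9, with lists ordered by their median. Colours mark genes with an adjusted p under 0.05, black bars the list medians, and the dotted line the median of all 13263 tested genes. Medians run from 0.90 for NF-kB targets to -0.38 for NRF2 targets, and most lists hold called members on both sides.

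Outside the lists, the largest rises included VAV3, a guanine nucleotide exchange factor, and SLC3A1, the heavy chain of a cystine transporter. VAV3 read 6.87, 6.88, 6.79, 6.61 and 7.60 early and 10.35, 10.94, 9.87, 10.59 and 9.96 late, a rise of 3.39 (SE 0.23, adjusted p = 1.4e-06). SLC3A1 read 4.16, 3.76, 3.59, 3.32 and 4.07 early and 6.89, 7.01, 6.89, 6.31 and 7.33 late, a rise of 3.11 (SE 0.21, adjusted p = 1.2e-06). In both, the windows lay far apart. FRZB, a secreted Wnt antagonist, rose by 2.88 on the probe used and 1.61 on its second, but had the opposite sign within scan days (-2.85). CCDC30 rose by 2.89. For 4 more of the 10 largest rises, no other probe of the gene showed the rise. TNXB rose by 3.31 on the probe used and was at -0.58, -0.86 and -1.43 on the other 3, the last of which was above background on 5 of the 10 arrays. RAVER1 rose by 2.87 and was at -0.06 on the other, and CD86 rose by 3.18 while its other probe was above background on 0 of the 10 arrays. PSORS1C2 had values on 3 arrays only after outlier spots were removed, 9.52 and 6.80 early and 11.96 late, and its difference of 3.80 lost its call with scan day as a block (adjusted p = 0.059). Over all called genes, 2386 had another probe above background on all 10 arrays, and for 613 of these such a probe had the opposite sign.

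Among genes whose windows did not overlap and whose probe was above background on all 10 arrays, PRMT6 had the largest fall. PRMT6, an arginine methyltransferase that acts on histones, read 10.53, 11.11, 11.24, 11.76 and 11.85 early and 8.42, 8.19, 7.81, 7.51 and 7.81 late. It climbed through the early window and then fell by 3.35 in the mean (SE 0.26, adjusted p = 2.4e-06). GEMIN7, a part of the SMN complex that assembles spliceosomal particles, read 10.86, 11.22, 11.11, 11.12 and 11.02 early and 8.48, 8.18, 8.49, 8.47 and 8.19 late, a fall of 2.70 (SE 0.12, adjusted p = 1.7e-07). The zinc finger genes ZNF239 (-3.18) and PLAGL2 (-3.04), the exonuclease EXO5 (-3.02), SPRR1A (-2.80), a protein of the cornified envelope, TEX261 (-2.66), FAM78A (-2.64) and ACKR3 (-2.62), a scavenger receptor for CXCL12, made up the 10 largest falls of such genes with PRMT6, BCAT2 and GEMIN7. All 10 kept an adjusted p under 0.05 with scan day as a block. A further 384 called genes were above background on all 5 arrays of 1 window and on 0 of the other, all of them lower late, so that only a bound holds for their change, and the bound was above 1-fold for 198. The bound compares the early mean with the higher of the gene's own late signal and the lowest signal above background on each late array. CYP1A1, the xenobiotic-metabolizing target of the aryl hydrocarbon receptor, fell at least 9.65-fold, MMACHC, a vitamin B12 enzyme, at least 6.30-fold and ABRAXAS2 at least 6.29-fold (adjusted p = 4.9e-06, 5.8e-06 and 1.1e-05). CYP1A1 read 9.22, 7.95, 8.04, 7.78 and 6.71 early, highest at 0 h, and between 3.22 and 4.21 late.

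The genes that had moved at least 2-fold did so over many hours. For the 1005 higher genes, the median share of the full change reached by the mean of 4 to 11 h was 30.8%, and 75.9% by 12 to 19 h. For the 1442 lower genes these shares were 34.9% and 74.9%. At 3 h the median change of the higher genes was 0.12, at 4 h 0.35, at 10 h 0.64, at 14 h 1.09 and at 19 h 1.35. The lower genes were at 0.01, -0.29, -0.67, -1.07 and -1.36 at the same hours. Steps were seen both within and between scan days. The higher genes moved from 0.12 at 3 h to 0.35 at 4 h on 1 day, and from 0.41 at 9 h to 0.64 at 10 h and from 1.16 at 18 h to 1.35 at 19 h across a change of day. The lower genes went from -1.04 at 18 h to -1.36 at 19 h. Across the change of day from 6 to 7 h the medians moved back. The higher genes went from 0.36 to 0.25 there and the lower genes from -0.49 to -0.25. Within the days of the late window the medians stayed flat, at 1.35, 1.32 and 1.32 from 19 to 21 h and 1.37, 1.40 and 1.36 from 22 to 24 h.

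**Figure D4:**
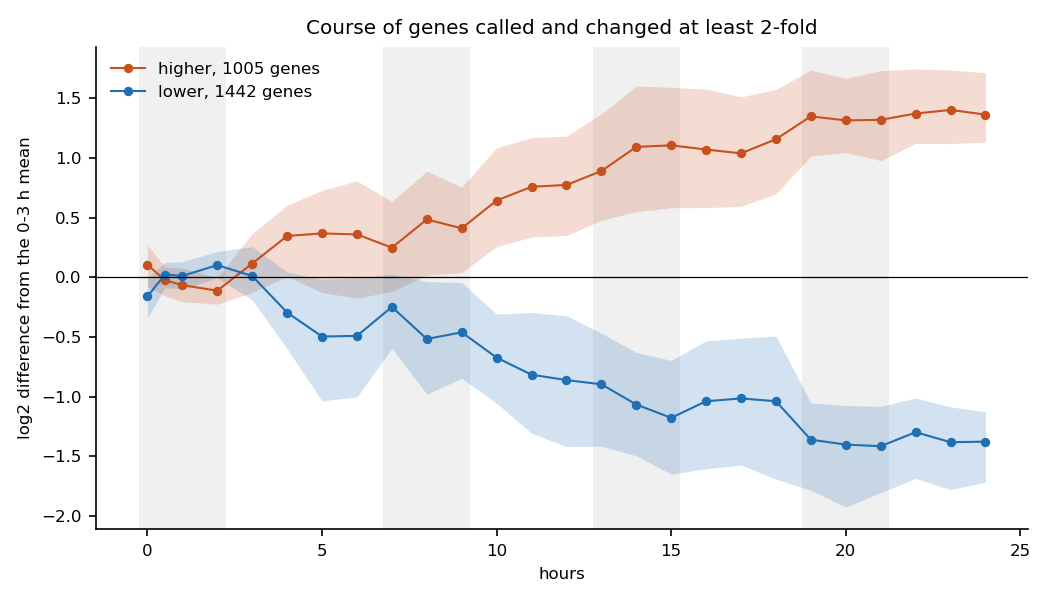
Median log2 difference from the early mean against time in hours, for the 1005 genes higher and the 1442 genes lower late by at least 2-fold in untreated PC9. Bands show the middle 50% of genes and grey areas every other scan day. The higher genes go from 0.12 at 3 h to 1.35 at 19 h, and the lower genes from 0.01 to -1.36.

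The middle of the course was set against both ends, since a gene can leave and return. Of 13263 genes, 3845 (29%) differed between 4 to 19 h and the mean of the windows, 1605 higher (12.1%) and 2240 lower (16.9%) in the middle, and 187 at least 2-fold. The lean to lower values was not seen when arrays were scaled to their 75th percentile, with 2147 higher and 2147 lower. HSPA5 was lowest in the middle, with means of 15.27 at 0 to 3 h, 13.24 at 4 to 11 h, 12.67 at 12 to 19 h and 13.99 at 20 to 24 h. Its middle lay 1.67 below the mean of the early and late windows (adjusted p = 6.6e-05), which does not test it against each window. NECTIN4, an adhesion protein of epithelial tumours, had means of 7.84, 6.55, 7.52 and 9.05 and a middle difference of -1.41 (adjusted p = 0.00022). CD55, which shields cells from complement, had means of 10.70, 8.98, 8.92 and 9.83 and a middle difference of -1.32 (adjusted p = 6.6e-06). MYB, a transcription factor of proliferating cells, and CSRP2, a LIM protein, had moved by 4 to 11 h. MYB had means of 5.50, 7.80, 7.87 and 7.59, with a middle difference of 1.29 (adjusted p = 3.0e-05), and CSRP2 of 7.79, 9.77, 10.14 and 9.74, with 1.19 (adjusted p = 8.4e-06). TRIM35, at 1.38 (adjusted p = 0.043), lost its call in most fits that left out 1 array of the end windows, and was at 0.02 on its brightest probe.

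PC9 cells given EGF were on the same slides and scan days, and their RNA was separate. In that course 7944 genes (59.9%) differed between the windows, 3752 higher (28.3%) and 4192 lower (31.6%). Untreated PC9 shared 6426 of its 7256 called genes with that course in the same direction, which is 88.6% of the first list and 80.9% of the second, and 9 in the opposite direction. Any effect of slide or scan day would be shared by both courses, so this overlap cannot tell such an effect from time. The difference between the courses, tested on the EGF minus untreated differences within slides, passed for 146 genes (1.1%), 67 with a higher (0.505%) and 79 with a lower (0.596%) change with EGF. MMP1, an interstitial collagenase, read 4.29, 5.04, 5.22, 5.15 and 5.58 early and 5.99, 5.74, 5.39, 5.21 and 5.28 late in untreated cells, a difference of 0.47 that did not pass (adjusted p = 0.11). With EGF it read 4.81, 4.97, 5.16, 5.34 and 5.87 early and 9.01, 9.17, 8.11, 8.31 and 8.51 late, so that the changes differed by 2.93 (adjusted p = 2.5e-05). LTB, a membrane-bound cytokine of the TNF family, rose in untreated cells by 1.46, from 7.46, 7.33, 7.24, 7.13 and 7.22 to 8.88, 8.74, 8.73, 8.85 and 8.46, without overlap. With EGF it read 7.52, 7.12, 7.28, 7.14 and 7.19 early and 7.43, 6.35, 6.50, 6.35 and 6.53 late, and the changes differed by -2.08 (adjusted p = 0.0012). RDH16, a retinol dehydrogenase, rose by 0.86 without and was at -0.68 with EGF, a difference of -1.54 (adjusted p = 0.0057). The number of such genes was sensitive to single hours, and was 33 without 0.5 h, 51 without 1 h, 64 without 2 h, 87 without 0 h, 72 without 22 h, 83 without 24 h and 190 without 20 h.

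Untreated PC9M2 cells, on other slides and scan days, shared part of these changes. In that course 6535 genes (49.3%) differed between the windows, 3466 higher (26.1%) and 3069 lower (23.1%). Of the 7256 genes of PC9, 3268 were called in the same direction in PC9M2, which is 45.0% of the first list and 50% of the second, and 718 in the opposite direction. The change differed between the lines for 5221 genes (39.4%), 2965 with a higher (22.4%) and 2256 with a lower (17%) change in PC9M2. Of the 3677 of these that were called in PC9, 3235 changed less or the opposite way in PC9M2, and 442 changed more. The array measures also differed in PC9M2, with 29790 to 32304 features above background early and 29192 to 31786 late, and negative controls at 26.6 to 32.1 early and 20.6 to 26.6 late, the reverse of PC9. In PC9M2 0 features were saturated in either window, beside 814 to 1616 early and 463 to 797 late in PC9. The 75th percentile of the signal was 536 to 1412 early and 695 to 1267 late in PC9M2, beside 1804 to 4300 and 900.3 to 1861 in PC9. Their part in the difference was not tested, and line, slide and scan day cannot be told apart.

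CXCL8 read 2.46, 2.06, 2.04, 2.02 and 2.24 early and 4.53, 5.13, 5.04, 5.19 and 5.99 late in PC9M2. It was above background on 0 of these early and all 5 late arrays and was called higher (adjusted p = 1.9e-06), but its rise has no exact size there and was not set against that in PC9. CXCL1 (2.98 in PC9M2), IFIT1 (1.73), RIGI (1.76), E2F1 (1.58) and ENO2 (1.86) rose too, with no called difference between the lines. VAV3 read 6.63, 6.74, 6.37, 6.54 and 6.33 early and 6.67, 7.22, 7.10, 7.21 and 7.02 late in PC9M2. It rose there by 0.52, which was less than in PC9 by 2.87 (adjusted p = 5.4e-07). SLC3A1 likewise rose by 0.43 in PC9M2, less by 2.68 (adjusted p = 9.4e-07). CDKN2D (1.67) and ERRFI1 (0.98) rose less than in PC9 (adjusted p = 4.8e-05 and 3.5e-06). Of the 10 largest rises of PC9, 6 were called higher in PC9M2 too, and of the 10 largest falls all 10 were called lower. The difference between the lines was called for 9 of these falls, each smaller in PC9M2, and genes chosen as extremes in PC9 lean to smaller changes elsewhere. The glycolysis and HIF list had a higher median in PC9M2 (1.10 against 0.48), as had sterol synthesis (1.29 against 0.47) and DNA replication (1.20 against 0.51), whereas the FOXO list had its median at -0.09 against 0.69. No test was made of these medians. AXIN2 fell further in PC9M2, from 8.07, 8.02, 8.07, 8.24 and 7.71 to 5.58, 5.27, 4.87, 4.90 and 4.49, a fall of 3.00 against 0.83 in PC9 (difference -2.18, adjusted p = 1.7e-05). FZD5 (-0.07) and FZD7 (-0.29) did not pass in PC9M2, and their changes differed from those in PC9 (adjusted p = 0.0019 and 6.3e-05). IL27, a cytokine subunit, read 12.72, 12.85, 13.09, 13.01 and 13.29 early and 8.17, 8.55, 10.66, 7.50 and 11.55 late in PC9M2, against means of 11.77 and 12.03 in PC9, where it did not pass.

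**Figure D5:**
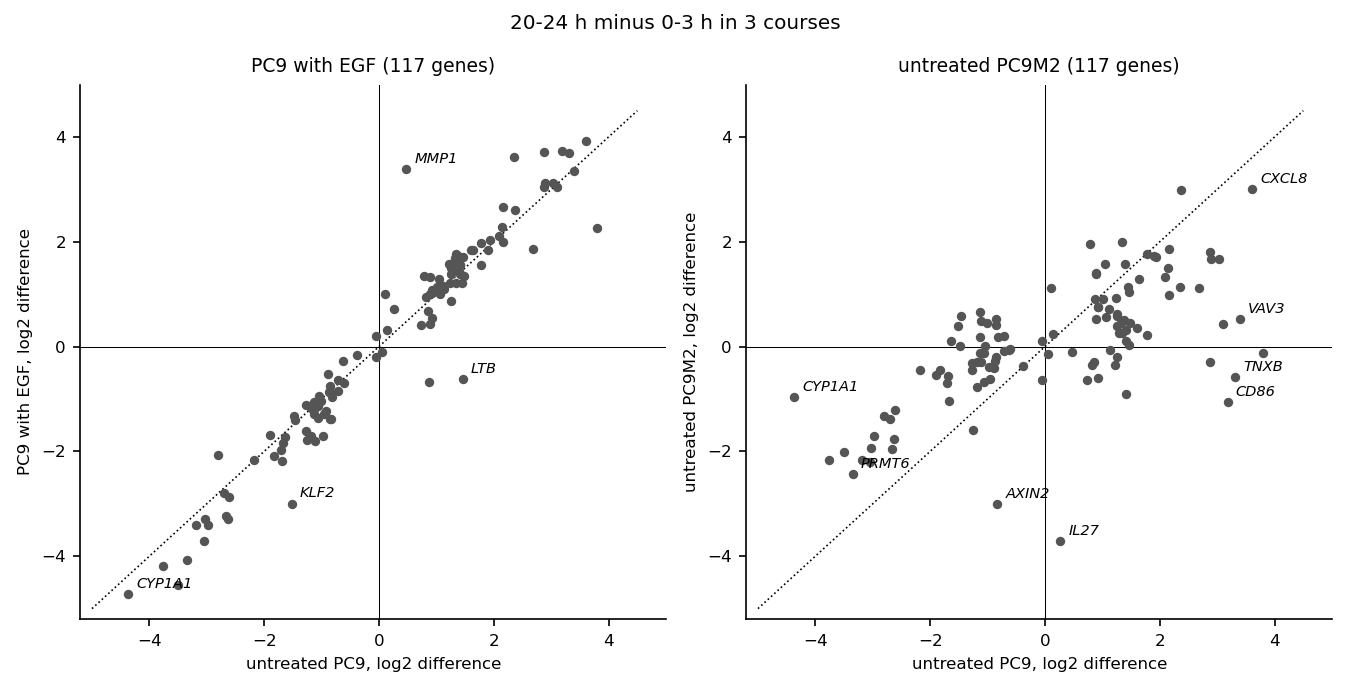
Log2 difference, 20 to 24 h minus 0 to 3 h, of the 117 named genes in PC9 with EGF (left) and in untreated PC9M2 (right), each against the difference in untreated PC9. Each point is 1 gene and the dotted line marks equal differences. With EGF the points follow the line except for genes such as MMP1 and LTB, and in PC9M2 many lie nearer to 0, with AXIN2 and IL27 below the line.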

How the data were processed

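RNA of 208 samples was hybridized singly to one-colour Agilent 44K arrays, and the 26 of untreated PC9 were compared by time. Per the file headers, the deposited intensities are background-subtracted processed signals from Feature Extraction 10.5.1.1. The deposited series table holds the authors' quantile-normalized intensities and was an alternative. Control features and outlier spots were left out (0.116% of the tested values of untreated PC9), the processed signals were quantile-normalized over all arrays with a floor of 1, log2 was taken and spots of a probe were averaged. RefSeq accessions named 24794 of 41000 probes, giving 16961 genes. Of several probes (6040 genes) the one with the highest variance was used. Genes well above background on at least 13 of 26 arrays of 1 or more courses (13263) were tested with limma 3.58.1 in R 4.3.3, after a check on simulated data, two-sided with Benjamini-Hochberg adjustment at 0.05. Depth is not defined for arrays, and their number limits the precision.

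Differences between windows, between the middle hours and both windows, between courses with EGF on the same slides, and between lines (an interaction) were tested, and array measures by exact permutation. The scan-day block, the probe choice, the scaling, the background correction, the floor, the filter and the arrays left out were varied. Named genes were the 10 largest rises and falls detected on all 10 arrays without overlap, the 3 largest bounded changes, the 3 largest called members of each of 27 lists detected on all 10 arrays, the 3 largest middle rises and falls, the 3 largest differences per course, and EGFR, MET, FZD5, FZD7, FZD9, LEF1, CTNNB1 and AXIN2. Further list members, such as PES1 and CSF2, were named after their values were seen. The arrays and lists were chosen with earlier results of these data known.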

Additional observations from a re-analysis of the deposited data

Results flagged for a closer look

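In 12 of 250 groups of 5 arrays checked, 1 array lay apart from the other 4 of its window, a number that chance gives in about 1 group in 20. The values are log2 signals. In the early window these were VAV3 at 3 h (7.60), PCK2 at 0 h (14.58), PSAT1 at 0 h (15.08), E2F1 at 0 h (9.79), HSPA1A at 3 h (15.51), CLDN7 at 0 h (16.13), ENO2 at 0 h (7.79), ZMAT3 at 2 h (7.68) and BOP1 at 3 h (12.89). In the late window they were EGR3 at 21 h (5.52), AURKB at 20 h (9.74) and PPIA at 23 h (15.84).

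The change over time with EGF differed from that in untreated PC9, by the test on the within-slide differences, for 7 named genes. As log2 differences of the changes, EGF minus untreated, these were FRZB (0.82), NQO1 (-0.68), SCD (0.56), CXCL11 (-0.82), MMP1 (2.93), LTB (-2.08) and RDH16 (-1.54).

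The change over time in PC9M2 differed from that in PC9, by the interaction of line and window, for 75 of the 117 named genes, beside 39.4% of all tested genes. Most named genes were chosen for large or called changes in PC9, and some for this difference itself. The choice raises their share, so the shares cannot be compared. The values are log2 differences of the changes, PC9M2 minus PC9. They were above 0 for CYP1A1 (3.41), ZMAT3 (2.04), KLF2 (1.91), TFRC (1.79), CLDN7 (1.75), YWHAZ (1.73), MMACHC (1.61), MAP1LC3B (1.60), AKR1C1 (1.50), ABRAXAS2 (1.49), SPRR1A (1.47), PSMD1 (1.46), ACKR3 (1.41), PSMA2 (1.38), PCK2 (1.37), TGFB1 (1.34), GEMIN7 (1.31), ACSL3 (1.30), BCAT2 (1.27), NOLC1 (1.27), SCD (1.17), PSAT1 (1.12), EXO5 (1.10), WDR12 (1.06), ZNF239 (1.02), SARS1 (1.01), PPIA (1.01), ZNRF3 (1.00), FZD6 (0.96), SPRY4 (0.94), ME1 (0.92), PRMT6 (0.92), BOP1 (0.88), PLAGL2 (0.84), NQO1 (0.83), TEX261 (0.71), HSD17B7 (0.65), BIK (0.65), ERBB3 (0.63), SMAD7 (0.54) and ITGAM (0.50). They were below 0 for CD86 (-4.24), IL27 (-3.97), PSORS1C2 (-3.92), TNXB (-3.89), RAVER1 (-3.16), VAV3 (-2.87), SLC3A1 (-2.68), PFKFB3 (-2.31), AXIN2 (-2.18), BAX (-1.56), CXCL11 (-1.56), NECTIN4 (-1.56), DNAJC3 (-1.52), PDK4 (-1.45), LTB (-1.42), ERBB2 (-1.38), CDKN2D (-1.35), DNAJB1 (-1.30), CDKN2B (-1.25), CCDC30 (-1.23), FZD5 (-1.20), ERRFI1 (-1.17), ELF3 (-1.17), FZD7 (-1.13), HSPH1 (-1.10), FRZB (-1.08), NFKBIA (-1.04), PER1 (-1.03), WIPI1 (-0.87), TP53INP1 (-0.86), CIART (-0.86), CCN1 (-0.68), ANKRD37 (-0.65) and NFIL3 (-0.49). For PSORS1C2 this rests on 3 of the 10 PC9 arrays, 1 of them late. CYP1A1, MMACHC and ABRAXAS2 were above background on 0 late arrays of PC9, and in PC9M2 CXCL11 and FRZB on 1 early array each, so their differences have no exact size. In PC9 the spots of SARS1 and CLDN7 were saturated on most early arrays, and that of NFKBIA on some arrays of both windows. None of these was saturated in PC9M2, so their differences have no exact size either.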

How the results depend on the processing

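A change of at least 2-fold was passed by 2447 genes between the windows, 187 between the middle and both windows, 35 in the difference with EGF and 2203 in that with PC9M2. With scan day as a random block 4678 genes differed between the windows and 1898 between the middle and both windows, and the trend within scan days gave 260. Fewer arrays (0, 1 and 3 h against 20, 22 and 24 h) gave 4577. For the difference with EGF, a floor of 16 gave 248 genes, a fit without the pairing of arrays on a slide gave 38, and leaving out 1 array gave 33 to 190. With time points of the lines paired as a block, 4863 genes differed in PC9M2. Leaving out 1 array gave 6397 to 7445 genes between the windows, 2993 to 4119 for the middle and 4401 to 5231 for PC9M2. Scaling, background correction, probe choice, filters and the deposited table left these other counts within 1.5 times. No paired analysis was possible because the replicate numbers of the windows are only the order of their hours and tie no early array to a late one.

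Some named genes turned direction, with the log2 difference as follows. Scaling to the 75th percentile did so for ZNRF3 (0.42), CLDN7 (0.15), PSMA2 (0.19) and PPIA (0.90), and normexp for ZNRF3 (0.34) and MET (0.72). The brightest probe did so for AKR1C1 (0.017), ZNRF3 (0.44), SCD (-0.057), PFKFB3 (-0.11), MAP1LC3B (0.14), PPIA (0.17) and MET (0.79), and the mean of probes for PSORS1C2 (-0.29) and PPIA (0.10). Within scan days these were CD86 (-1.92), FRZB (-2.85), CCNG2 (-1.15), PDK4 (-0.088), TNFRSF10A (-2.30), BIK (0.043), CIART (-0.68), NFIL3 (-0.19), CDKN2B (-0.19), DNAJB1 (-0.017), DNAJC3 (-0.12), PFKFB3 (-0.62), KLF6 (-1.56), CXCL11 (-5.92), CTSS (-1.94), VWF (0.28), IDI1 (-0.48) and MSMO1 (-0.49). Of 112 named genes set against the trend within scan days, these 18 turned direction, 88 gave a weaker result and 6 were as before. Of the medians of 27 lists, 14 had the other sign within scan days. The causes were not tested. Fewer features above background late limit what can be said of dim genes.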
